A study of Arabidopsis thaliana with 9 samples.

Results

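The receptors and the signalling core of the brassinosteroid pathway were followed in the transcriptomes of wild type, *exg1-1* and *rlp44-3* seedlings. The 9 genes were chosen by locus identifier from the known pathway: the receptors *BRI1* (AT4G39400), *BRL1* (AT1G55610) and *BRL3* (AT3G13380), the co-receptor *BAK1* (AT4G33430), the receptor inhibitor *BKI1* (AT5G42750), the phosphatase *BSU1* (AT1G03445), the kinase *BIN2* (AT4G18710) and the transcription factors *BES1* (AT1G19350) and *BZR1* (AT1G75080). All 9 were among the 25717 genes with values, and 8 of them were among the 19454 genes that passed a filter on low values. The libraries came from intact whole seedlings of *Arabidopsis thaliana* collected at 7 days of age, with 3 libraries per genotype. Wild type was Col-0, and both mutants are in the Col-0 background. In *exg1-1*, which the labels spell evg1-1, *EXG1* (AT3G08030) is disrupted by T-DNA, and *rlp44-3* is an insertion mutant of *RLP44* (AT3G49750). Each gene is represented by 1 insertion line. All seedlings were grown vertically on agar at 20 °C with 8 h of light and 16 h of dark, after 2 days of stratification, and the labels name no hormone treatment. The labels do not say whether the 3 libraries of a genotype came from separate batches of seedlings.

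Brassinosteroids are steroid hormones that promote cell expansion and vascular development. At the cell surface they bind BRI1 or its relatives BRL1 and BRL3, which then pair with BAK1 and release the inhibitor BKI1. Phosphatases of the BSU1 family inactivate the GSK3-like kinase BIN2, and BES1 and BZR1, which BIN2 holds back by phosphorylation, then accumulate in the nucleus in their dephosphorylated form. Most of these steps act on proteins. RLP44 is a receptor-like protein that binds BRI1 and BAK1 and links the state of the cell wall to this pathway.

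The values in the files are fitted numbers of reads, not counts. Within a genotype the 3 columns were proportional over all genes (largest relative deviation 6.2e-15), so the files hold 1 value per gene and genotype and no spread between replicates. No test between genotypes and no SD could be computed. Differences are therefore described by 95% counting intervals, which treat the summed values as reads and leave out biological variation, and by the share of all filtered genes that differed as much. The columns summed to 8364383 to 9606982 reads per Col-0 library, 10396228 to 12971468 per *exg1-1* library and 11015026 to 11535985 per *rlp44-3* library. Levels are fitted CPM, scaled between genotypes, and levels of different genes are compared only per kb of exon.

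The mutated genes were lower in their own mutants. *EXG1* was at 103 fitted CPM in Col-0, with 33.8 in *exg1-1* and 93.6 in *rlp44-3*, and *RLP44* at 3.72, 3.01 and 0.0317. The seedlings differed in other respects as well. The 4 root markers were all lower in *exg1-1* than in Col-0 (log2 differences −0.59 to −0.12), and 3 of 4 were lower in *rlp44-3* (−0.30 to 0.07). The 4 shoot markers lay between 0.05 and 0.15 in *exg1-1* and between −0.03 and 0.13 in *rlp44-3*. Seed markers summed to 151 fitted CPM in Col-0 against 46.0 in *exg1-1* and 47.3 in *rlp44-3*. Of the 13, 9 passed the filter, and these 9 were lower in both mutants. Most of them passed through their Col-0 level alone, and for those the filter itself fixed the direction. *EM6* and *RAB18* passed it in every genotype, with log2 differences of −0.63 and −1.60 in *exg1-1* and −0.78 and −1.49 in *rlp44-3*. The 4 dawn clock genes had a median log2 difference of 0.18 in *exg1-1* and −0.23 in *rlp44-3*. All 5 evening clock genes were higher in both mutants, with medians of 0.19 and 0.06. Of all filtered genes, 49.2% were higher in *exg1-1* and 49.9% in *rlp44-3*. The counting intervals of *TOC1*, *ELF4* and *ELF3* in *rlp44-3*, and of *ELF4* in *exg1-1*, included 0. The part of these differences in the results below was not tested. In whole seedlings, fewer cells of a type and less RNA per cell cannot be told apart.

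Most fitted levels of the signalling core lay within 1.2-fold of Col-0 in both mutants, as did those of most filtered genes. The counting intervals of *BRL1*, *BRL3* and *BKI1* in both mutants, and of *BZR1* in *exg1-1*, extend past 1.2-fold. Closeness to Col-0 is not shown for these. Of the 8 genes that passed the filter, only *BRL1* differed by at least 1.2-fold between *exg1-1* and Col-0, and it was lower. Among all filtered genes, 16.6% were lower and 12.6% higher by that much. No gene of the 8 reached 1.2-fold in *rlp44-3* against Col-0, where 8.40% of all filtered genes were higher and 10.8% lower, and *BKI1* lay just inside the limit at 1.197-fold (log2 difference 0.26, and 0.27 and past the limit with library totals as the scale). Between the mutants, *BRL1* and *BKI1* were lower in *exg1-1* than in *rlp44-3* by at least 1.2-fold, against 15.4% of all filtered genes lower and 12.6% higher. None of the 8 reached 1.5-fold in any comparison, which 8.31% of all filtered genes did between *exg1-1* and Col-0, 5.22% between *rlp44-3* and Col-0 and 6.98% between the mutants. In either direction, 1, 0 and 2 of the 8 genes were thus past 1.2-fold in the 3 comparisons, where 29.3%, 19.2% and 28.1% of all filtered genes were. Both comparisons with Col-0 use the same 3 Col-0 libraries.

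**Figure D1:**
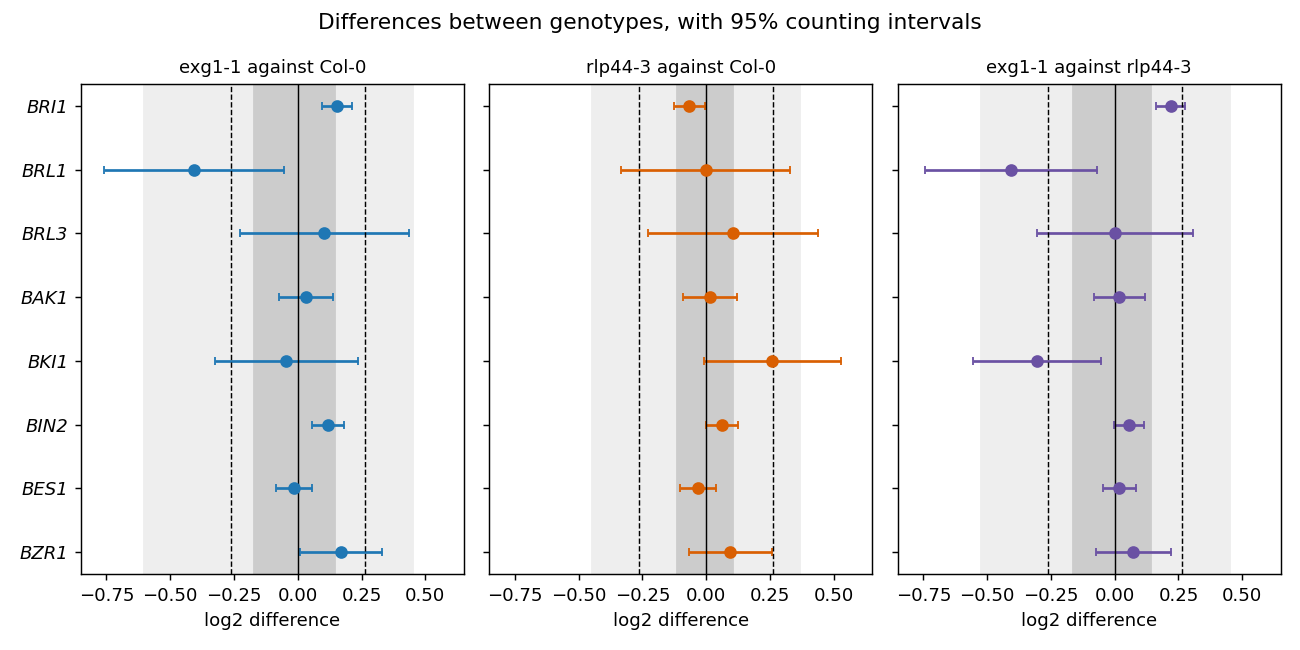
Log2 difference of the 8 filtered genes in each comparison (points) with 95% counting intervals (bars), over the middle 50% (dark band) and middle 90% (light band) of all 19454 filtered genes, with dashed lines at 1.2-fold. *BRL1* lies beyond the lower line in *exg1-1* against Col-0 and against *rlp44-3*, *BKI1* beyond it in *exg1-1* against *rlp44-3*, and no gene beyond it in *rlp44-3* against Col-0.

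The counting interval left out 0 for 4 of the 8 genes between *exg1-1* and Col-0 (*BRI1*, *BRL1*, *BIN2* and *BZR1*), against 41.0% of all filtered genes. It did so for *BRI1* and *BIN2* between *rlp44-3* and Col-0, against 26.4%, and for *BRI1*, *BRL1* and *BKI1* between the mutants, against 41.0%. Several of these intervals ended close to 0, and other scales or filters moved them across it. *BZR1* in *exg1-1* no longer counted with library totals or the upper quartile as the scale. In *rlp44-3*, *BIN2* no longer counted with the upper quartile, without organelle genes in the scaling or with at least 10 reads in every library. *BRI1* no longer counted there with library totals or without the filter, and *BKI1* did in both. The median log2 difference of the 8 genes was 0.07 in *exg1-1*, 0.04 in *rlp44-3* and 0.02 between the mutants. Over all filtered genes these medians were −0.0044, −0.00034 and 0.00099. The members' median in *exg1-1* ranged from 0.02 with library totals to 0.13 without the filter, where *BSU1* entered, and between the mutants it turned to −0.04 with library totals and −0.02 with the upper quartile. These 2 scales shifted every log2 difference between *exg1-1* and Col-0 by −0.05, so small positive values in *exg1-1* can take the other sign with them. Of the 8, 5 were higher than Col-0 in each mutant, where 49.2% of all filtered genes were higher in *exg1-1* and 49.9% in *rlp44-3*. In *exg1-1* this count was 4 with library totals or the upper quartile, with *BAK1* at −0.02 and −0.01, and 6 without the filter.

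The 9 genes covered a wide range of levels, and their order was the same in the 3 genotypes except for the pair *BRL1* and *BRL3*. Per kb of exon, *BIN2* was highest in Col-0 (49.6 fitted CPM per kb, counting interval 48.0 to 51.3), followed by *BES1* (45.1, 43.5 to 46.7), *BRI1* (32.1, 31.1 to 33.1) and *BAK1* (16.3, 15.4 to 17.2). *BZR1* (10.2, 9.40 to 11.1) and *BKI1* (3.83, 3.31 to 4.40) came next. *BRL1* (1.15, 0.967 to 1.36) and *BRL3* (1.08, 0.906 to 1.28) did not differ beyond their counting error. *BSU1* was lowest at 0.0514 (0.0139 to 0.132). *BIN2*, *BES1* and *BRI1* stood above 90.9%, 90.0% and 85.6% of the filtered genes per kb in Col-0, and *BRL1* and *BRL3* above 8.43% and 7.68%.

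**Figure D2:**
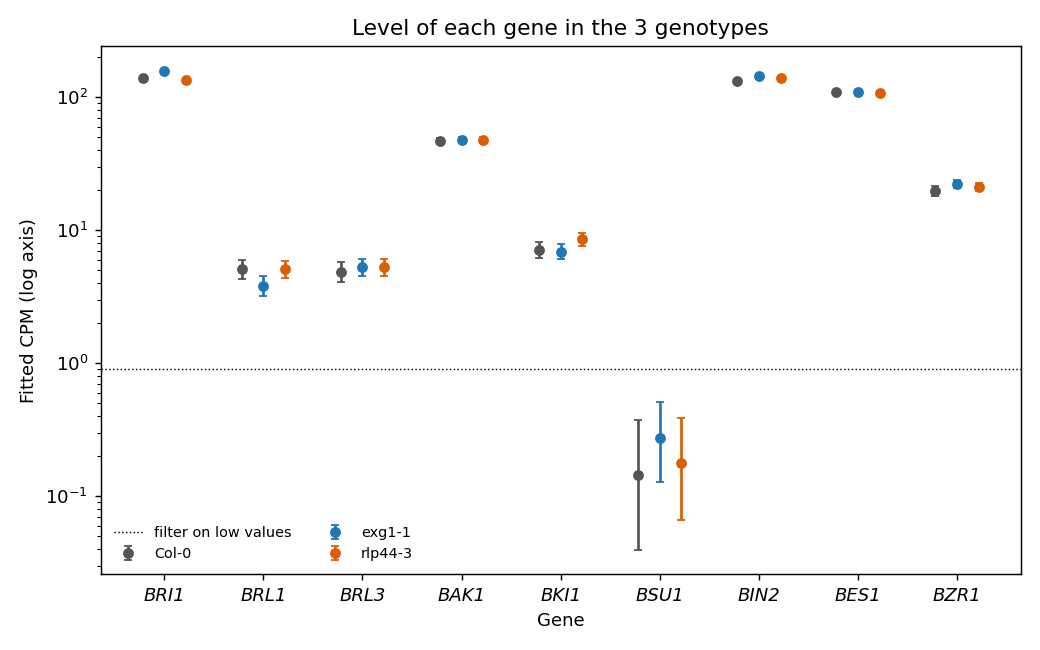
Fitted CPM (log axis) of the 9 genes in Col-0 (grey), *exg1-1* (blue) and *rlp44-3* (orange), with 95% counting intervals as bars and the filter on low values, 0.908 CPM, as a dotted line. *BRL1* lies lower in *exg1-1* (3.83) than in Col-0 (5.08), and only *BSU1*, at 0.145 in Col-0 and 0.272 in *exg1-1*, lies under the filter.

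*BRI1*, the main brassinosteroid receptor (chr4:18324457-18328831, + strand, TAIR10.1), had fitted reads of 1321, 1173 and 1348 in the 3 Col-0 libraries, 1567, 1903 and 1955 in *exg1-1* and 1507, 1487 and 1557 in *rlp44-3*. Because the columns of a genotype differ only by a library factor, these values show the depth behind each level and not a replicate spread. After scaling, *BRI1* was at 140.3 fitted CPM in Col-0, with 156 in *exg1-1* and 134 in *rlp44-3*. It was thus 11.2% higher in *exg1-1* (log2 difference 0.15, counting interval 0.09 to 0.21) and differed by −4.47% in *rlp44-3* (−0.07, −0.13 to −0.0036). The mutants lay on opposite sides of Col-0, and the difference between them was 0.22 (0.16 to 0.28). Of the 1901 filtered genes within 2-fold of the level of *BRI1* in Col-0, 44.9% differed at least as much between *exg1-1* and Col-0, 49.9% between *rlp44-3* and Col-0 and 27.1% between the mutants.

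*BRL1*, a receptor known from vascular cells (chr1:20779493-20784017, − strand, TAIR10.1), showed the largest log2 difference from Col-0 among the filtered members. Its fitted reads were 47.8, 42.5 and 48.8 in Col-0 against 38.4, 46.7 and 48.0 in *exg1-1* and 57.0, 56.2 and 58.9 in *rlp44-3*. The *exg1-1* libraries had more reads in all than those of Col-0, but no more reads of *BRL1*. In fitted CPM, *BRL1* was at 5.08, 3.83 and 5.07 in Col-0, *exg1-1* and *rlp44-3*. The log2 difference was −0.41 in *exg1-1* (counting interval −0.76 to −0.05) and −0.0026 in *rlp44-3* (−0.33 to 0.33), and −0.40 (−0.74 to −0.07) between the mutants. These intervals are wide, since *BRL1* rests on a mean of 46.4 reads per Col-0 library. Of the 5203 filtered genes within 2-fold of its Col-0 level, 21.2% differed from Col-0 in *exg1-1* at least as much. The root markers were lower in the same mutant, *COBL9* at −0.59, *BGLU21* at −0.49, *TIP2;3* at −0.30 and *PYK10* at −0.12 on the log2 scale, and their part in the value of *BRL1* was not tested.

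The 250 bases before the annotated start of *BRL1* are shown because it is the 1 member past the limit in *exg1-1*. The window was searched on both strands for the brassinosteroid response element that BZR1 binds (CGTGTG or CGTGCG) and for the G-box (CACGTG), a site of BES1 and BZR1 and of other factors, and capitals mark such a match in the windows printed here. This window (chr1:20784018-20784267, − strand, TAIR10.1, RefSeq) has none.
BRL1: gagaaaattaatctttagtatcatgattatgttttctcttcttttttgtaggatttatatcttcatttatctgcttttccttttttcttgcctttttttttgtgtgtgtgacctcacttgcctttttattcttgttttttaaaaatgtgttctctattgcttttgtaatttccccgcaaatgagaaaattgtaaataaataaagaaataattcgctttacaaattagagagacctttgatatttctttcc

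*BRL3* (chr3:4346330-4350939, + strand, TAIR10.1), the closest relative of *BRL1*, was not lower in *exg1-1*. It had fitted reads of 40.8 to 46.9 in Col-0, with 52.7 to 65.8 in *exg1-1* and 58.2 to 61.0 in *rlp44-3*. This gave 4.88, 5.25 and 5.25 fitted CPM, and a log2 difference of 0.10 in both *exg1-1* (counting interval −0.22 to 0.44) and *rlp44-3* (−0.23 to 0.44). The intervals of *BRL1* and *BRL3* in *exg1-1* overlap, and the difference between these relatives was not tested. The longest exact run that the coding sequences of *BRL1* and *BRL3* share has 31 bases. No stretch of 50 bases within an exon of *BRI1*, *BRL1* or *BRL3* occurs in another protein-coding gene of the annotation, overlapping genes aside. Non-coding genes, pseudogenes and stretches across exon junctions were not searched. The shared run (chr1:20780704-20780734, − strand, and chr3:4349877-4349907, + strand, TAIR10.1) is printed as their longest exact match, and it is shorter than the reads of 150 bases that the study sequenced.
BRL1 and BRL3: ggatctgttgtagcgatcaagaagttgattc

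Within the *BRI1* family, *BRI1* held 77.1% of the summed fitted CPM per kb in Col-0 against 78.5% in *exg1-1* and 78.0% in *rlp44-3*. *BRL2*, a vascular relative that does not bind brassinosteroid, held 17.6%, 17.0% and 16.1%, and *BRL1* 2.77%, 1.91% and 2.92%. *BRL2* had a log2 difference of 0.08 in *exg1-1* and of −0.21 in *rlp44-3*. The summed level of the 4 genes differed from Col-0 by 0.13 in *exg1-1* and by −0.08 in *rlp44-3* on the log2 scale. *BRL1* held too small a share for its lower value in *exg1-1* to show in this sum, most of which is *BRI1*.

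*BAK1* (chr4:16086311-16090832, − strand, TAIR10.1), the kinase that pairs with BRI1 and also with immune receptors, was nearly level across the 3 genotypes. It had fitted reads of 392 to 451 in Col-0, with 482 to 601 in *exg1-1* and 526 to 551 in *rlp44-3*, equal to 46.9, 48.0 and 47.4 fitted CPM. The log2 difference was 0.03 in *exg1-1* (counting interval −0.07 to 0.14) and 0.02 in *rlp44-3* (−0.09 to 0.12). A gene on the opposite strand, AT4G33420, covers 2.71% of the exon bases of *BAK1*. *BAK1* held 38.7% of the summed level per kb of the 5 *SERK* genes in Col-0 against 38.9% in *exg1-1* and 39.5% in *rlp44-3*, and *SERK2* 34.1%, 34.0% and 32.5%. *SERK4*, a relative with which *BAK1* acts redundantly, was at 10.8, 13.2 and 11.6 fitted CPM, a log2 difference of 0.29 in *exg1-1* (0.07 to 0.50) and 0.11 in *rlp44-3*. The *SERK* sum differed by 0.02 in *exg1-1*, within the shift of the scale, and by −0.01 in *rlp44-3*.

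Of 13 other genes acting at the receptors, 12 passed the filter. In *exg1-1*, 3 were higher by at least 1.2-fold and 1 lower, against 12.6% and 16.6% of all filtered genes. The higher ones were *PSKR1*, a receptor of phytosulfokine peptides, at 0.36, *BIR1*, a receptor kinase that binds BAK1, at 0.33, and *SERK4*. The lower one was *RLP44* at −0.31 (counting interval −0.71 to 0.10). In *rlp44-3* the mutated *RLP44* alone was past that limit, the next lowest was *BRL2* and the highest *BIR1* at 0.19, against 8.40% of all filtered genes higher and 10.8% lower by that much. The median log2 difference of the list was 0.0069 in *exg1-1* (−0.04 with library totals or the upper quartile, where 2 were higher by at least 1.2-fold) and −0.03 in *rlp44-3*.

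*BKI1* (chr5:17142816-17144672, − strand, TAIR10.1) encodes the inhibitor that keeps BRI1 from pairing with BAK1. Its fitted reads were 66.9, 59.4 and 68.3 in Col-0, with 69.2, 84.0 and 86.3 in *exg1-1* and 95.6, 94.4 and 98.9 in *rlp44-3*. In fitted CPM it was at 7.11 in Col-0 against 6.89 in *exg1-1* and 8.51 in *rlp44-3*. *BKI1* was the highest of the filtered members relative to Col-0 in *rlp44-3*, with a log2 difference of 0.26 (counting interval −0.0077 to 0.53), and it stood at −0.04 (−0.32 to 0.24) in *exg1-1*. Between the mutants the difference was −0.30 (−0.56 to −0.05). Of the 6022 filtered genes within 2-fold of its Col-0 level, 22.4% differed from Col-0 in *rlp44-3* at least as much. The dawn clock genes *CCA1* (−0.32) and *LHY* (−0.37) were lower in *rlp44-3* than in Col-0, and their part in the value of *BKI1* was not tested. The level of *BKI1* per kb was 0.119 of that of *BRI1* in Col-0 against 0.104 in *exg1-1* and 0.150 in *rlp44-3*. This ratio of inhibitor to receptor transcript differed from Col-0 by −0.20 in *exg1-1* and by 0.33 in *rlp44-3* on the log2 scale. No counting interval was computed for the ratio. In each mutant the values of *BRI1* and *BKI1* lay on opposite sides of Col-0, and the interval of *BKI1* included 0 in both, though not in *rlp44-3* with library totals or without the filter. The window before *BKI1* (chr5:17144673-17144922, − strand, TAIR10.1, RefSeq), shown because *BKI1* is the other gene past the limit between the mutants, holds none of the searched elements.
BKI1: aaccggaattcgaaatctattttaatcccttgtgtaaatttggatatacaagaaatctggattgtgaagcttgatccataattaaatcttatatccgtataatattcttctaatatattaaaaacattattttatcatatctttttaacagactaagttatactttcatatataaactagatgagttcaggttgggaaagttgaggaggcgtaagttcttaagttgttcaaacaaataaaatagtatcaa

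*BSU1* (chr1:854410-859701, − strand, TAIR10.1), the founding member of the phosphatase family that acts on BIN2, was near the limit of detection. Its fitted reads were 1.21 to 1.39 per Col-0 library, 2.73 to 3.41 in *exg1-1* and 1.97 to 2.07 in *rlp44-3*, and it did not pass the filter in any genotype. The sums over 3 libraries were 3.97, 9.45 and 6.04 reads. The log2 difference of 0.91 in *exg1-1* has a counting interval from −0.91 to 3.06, so no direction can be read at this depth. *BSU1* held 0.125% of the summed level per kb of its family in Col-0, with 0.205% in *exg1-1* and 0.159% in *rlp44-3*. Its relatives *BSL1*, *BSL2* and *BSL3* made up the rest, with 45.0%, 32.2% and 22.7% in Col-0.

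The 3 *BSL* genes were higher in *exg1-1* by similar amounts, where 49.2% of all filtered genes were higher. *BSL1* was at 60.0, 70.2 and 58.8 fitted CPM in Col-0, *exg1-1* and *rlp44-3*, *BSL2* at 54.2, 62.0 and 51.4, and *BSL3* at 37.7, 41.5 and 36.5. Their log2 differences were 0.23 (counting interval 0.13 to 0.32), 0.19 (0.10 to 0.29) and 0.14 (0.02 to 0.26) in *exg1-1*. Of all filtered genes, 41.0% had an interval without 0 in that comparison. Library totals or the upper quartile shift these values by −0.05, and the interval of *BSL3* then includes 0. In *rlp44-3* the log2 differences of the *BSL* genes were −0.03, −0.08 and −0.05, and each of these intervals spans 0. The family sum differed by 0.20 in *exg1-1*, by −0.05 in *rlp44-3* and by 0.25 between the mutants. None reached 1.2-fold.

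**Figure D3:**
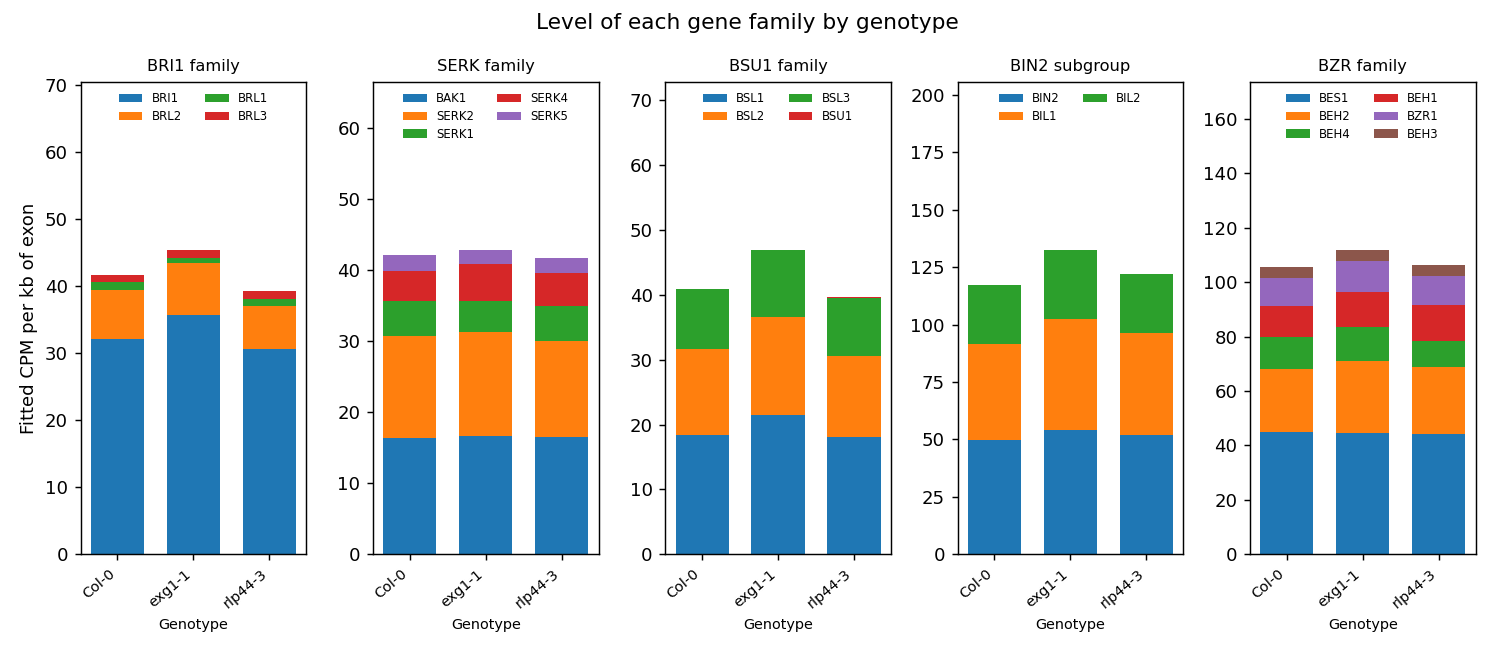
Fitted CPM per kb of exon of each gene in the *BRI1*, *SERK*, *BSU1*, *BIN2* and *BZR* families, stacked by genotype, with a vertical scale of its own in each panel and no replicate error, since the files hold none. *BRI1* makes up most of its family in every genotype, and *BSU1* is hardly visible beside the *BSL* genes.

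*BIN2* (chr4:10296138-10301228, + strand, TAIR10.1), the GSK3-like kinase that phosphorylates BES1 and BZR1, had fitted reads of 1106 to 1271 in Col-0 against 1442 to 1799 in *exg1-1* and 1534 to 1606 in *rlp44-3*. It was at 132 fitted CPM in Col-0, with 144 in *exg1-1* and 138 in *rlp44-3*. The log2 difference was 0.12 in *exg1-1* (counting interval 0.06 to 0.18) and 0.06 in *rlp44-3* (0.00045 to 0.13). Of the 2044 filtered genes within 2-fold of its level, 55.7% differed from Col-0 at least as much in *exg1-1* and 51.2% in *rlp44-3*. A same-strand neighbour, AT4G18720, shares 5.93% of the exon bases of *BIN2*.

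The closest relatives of *BIN2*, the kinases *BIL1* and *BIL2*, were also higher in *exg1-1*, by 0.20 (counting interval 0.12 to 0.29) and 0.24 (0.13 to 0.34) on the log2 scale. In *rlp44-3* they were at 0.08 and −0.01. *BIN2* held 42.3% of the summed level per kb of these 3 genes in Col-0 against 40.6% in *exg1-1* and 42.5% in *rlp44-3*, and the sum differed by 0.18 and 0.05. Over all 10 GSK3-like genes, *BIN2* held 17.5% in Col-0, just under *ATSK12* (18.1%), and the sum differed by 0.08 in *exg1-1* and 0.02 in *rlp44-3*. *ATSK13* lay in the other direction, at −0.20 in *exg1-1* (−0.30 to −0.10) and −0.13 in *rlp44-3*.

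Of 29 other genes of the cytoplasmic part of the pathway, 24 passed the filter. The list includes the *BSL* genes and GSK3 relatives counted above, the kinases *BSK1* to *BSK12*, *CDG1* and *CDL1*, and subunits of the phosphatase PP2A. In *exg1-1*, 3 of the 24 were higher by at least 1.2-fold (2 with library totals or the upper quartile) and 1 lower. Among all filtered genes, these shares were 12.6% and 16.6%. Of the 24, 16 were above Col-0 in *exg1-1* (14 with library totals), against 49.2% of all filtered genes, with a median log2 difference of 0.11 (0.06 with library totals). In *rlp44-3* none was higher and 2 were lower by that much, against 8.40% and 10.8%, and 9 of 24 were above Col-0, against 49.9%, with a median of −0.03. *CDL1*, a receptor-like cytoplasmic kinase related to *CDG1*, was at 18.2 fitted CPM in Col-0, with 23.0 in *exg1-1* and 16.8 in *rlp44-3*, a difference of 0.33 in *exg1-1* (counting interval 0.17 to 0.50) and −0.12 in *rlp44-3*. *BSK9* was the lowest in both mutants at −0.67 (−1.34 to −0.01) and −0.48 (−1.12 to 0.16), from a Col-0 level of 1.68 fitted CPM. The highest in *exg1-1* was AT3G61160 at 0.39 (0.07 to 0.72), which stood at −0.34 (−0.71 to 0.03) in *rlp44-3*. The PP2A subunit ATB' BETA was at 0.29 and 0.09, and ATB' ALPHA, the highest in *rlp44-3*, at 0.08 and 0.14. *BSK3* (64.5 fitted CPM in Col-0) and *BSK1* (39.5), kinases that the receptor phosphorylates, were at −0.0047 and 0.22 in *exg1-1* and at −0.02 and −0.07 in *rlp44-3*.

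*BES1* (chr1:6688463-6691216, + strand, TAIR10.1) and *BZR1* (chr1:28185504-28188075, + strand) encode the paralogous transcription factors at the end of the pathway. *BES1* had fitted reads of 919 to 1055 in Col-0 against 1092 to 1363 in *exg1-1* and 1192 to 1248 in *rlp44-3*, and was at 110 fitted CPM in Col-0, with 109 in *exg1-1* and 107 in *rlp44-3*. Its log2 differences were −0.01 (counting interval −0.08 to 0.06) and −0.03 (−0.10 to 0.04). *BZR1* had 165 to 189 fitted reads in Col-0 against 222 to 278 in *exg1-1* and 234 to 245 in *rlp44-3*, and was at 19.7, 22.2 and 21.1 fitted CPM. It was higher by 0.17 in *exg1-1* (0.0078 to 0.33), the highest value of the 8 genes in that comparison, and stood at 0.09 in *rlp44-3* (−0.07 to 0.26). Of the 7465 filtered genes within 2-fold of the level of *BZR1*, 38.6% differed from Col-0 in *exg1-1* at least as much.

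Other annotated genes overlap both transcription factor genes. Exons of *RRA3*, on the opposite strand, cover 33.6% of the exon bases of *BES1*. Exons of AT1G75090 and of a long non-coding RNA, AT1G09523, cover 26.1% of those of *BZR1*, also on the opposite strand. The libraries were directional, but whether the strand was used in counting is not given in the sources used here. *RRA3* was at 29.1, 28.0 and 26.9 fitted CPM in the 3 genotypes and AT1G75090 at 3.11, 3.24 and 3.09. *BES1* and *BZR1* also share an exact coding run of 71 bases, which makes up 0.941% and 1.24% of their windows of 50 exon bases. It is the only place where such a window of any of the 9 genes occurs in an annotated protein-coding gene elsewhere. No stretch of 150 bases within an exon, the length of the study's reads, of any of the 9 genes does so. The run is printed as the longest exact match of these paralogs (chr1:6689854-6689924 and chr1:28186752-28186822, + strand, TAIR10.1).
BES1 and BZR1: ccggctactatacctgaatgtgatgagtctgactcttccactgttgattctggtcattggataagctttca

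Of the 9 windows before the annotated starts, the one before *BZR1* alone held more than 1 of the searched elements. It has 2 response elements of the CGTGTG form, 178 and 22 bases before the start on the opposite strand (CACACG), and a G-box at 85 bases. The window before *BAK1* has 1 element of the CGTGCG form at 99 bases, and the other 7 have none. Over the 18938 filtered protein-coding genes of the nuclear chromosomes, 5.49% of windows hold CGTGTG, 1.67% CGTGCG and 7.57% CACGTG. The G-box is itself a form of the wider E-box CANNTG, which 56.5% of windows and those of 5 of the 9 genes hold. The window before *BZR1* is shown because it holds these matches (chr1:28185254-28185503, + strand, TAIR10.1, RefSeq).
BZR1: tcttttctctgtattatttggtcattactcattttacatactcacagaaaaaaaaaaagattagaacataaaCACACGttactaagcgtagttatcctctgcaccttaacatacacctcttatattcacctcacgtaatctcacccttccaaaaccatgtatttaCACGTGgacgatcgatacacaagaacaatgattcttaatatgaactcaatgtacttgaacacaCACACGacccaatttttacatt

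*BES1* held 42.7% of the summed level per kb of the 6 *BZR* family genes in Col-0, with 39.9% in *exg1-1* and 41.5% in *rlp44-3*. *BEH2*, a close homologue, held 21.8%, 23.4% and 23.2%, and *BZR1* 9.71%, 10.3% and 10.3%. *BEH1* and *BEH2* were at 0.18 and 0.19 in *exg1-1* and at 0.17 and 0.10 in *rlp44-3* on the log2 scale, *BEH4* at 0.12 and −0.24, and *BEH3* at −0.06 and −0.09. The family sum differed by 0.08 in *exg1-1* and by 0.0097 in *rlp44-3*. Per kb, *BZR1* was at 0.227 of *BES1* in Col-0 against 0.258 in *exg1-1* and 0.248 in *rlp44-3*. *BIN2* was at 1.10, 1.21 and 1.18 of *BES1*. The ratio of *BIN2* to *BES1*, of kinase to substrate transcript, differed from Col-0 by 0.13 and 0.10 on the log2 scale. The ratio of *BIN2* to *BZR1*, the other substrate among the members, lay in the other direction, at −0.05 and −0.03. No counting intervals were computed for these ratios.

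**Figure D4:**
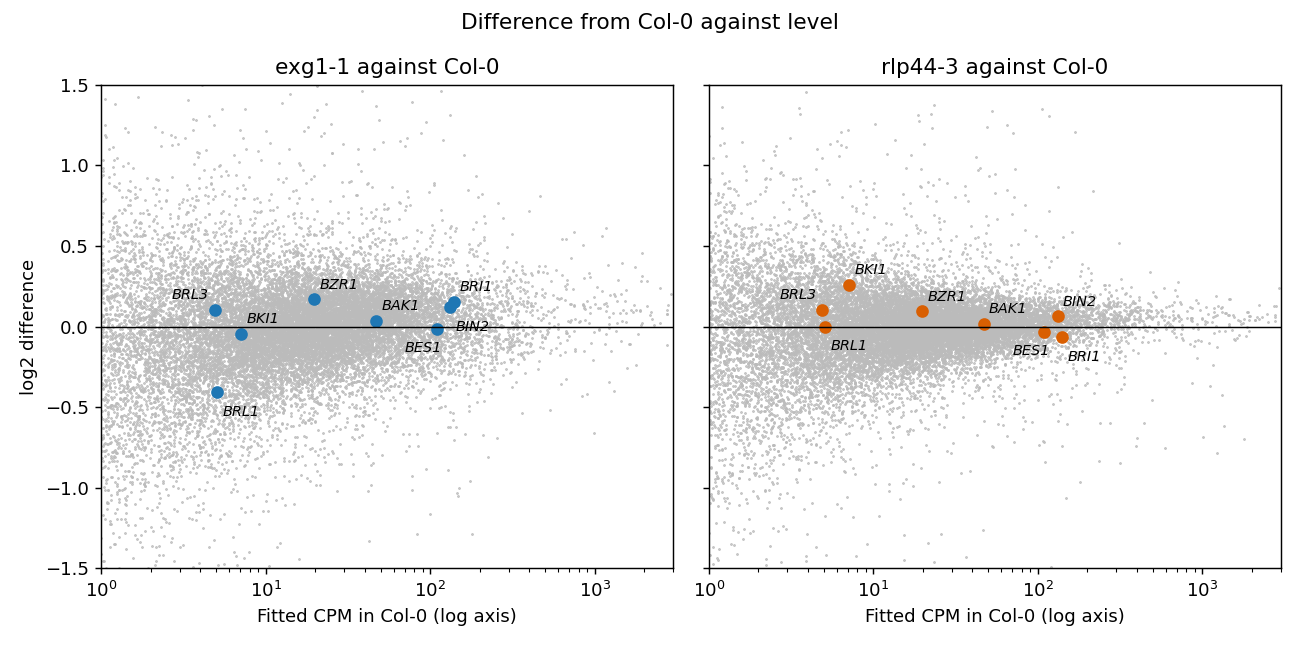
Log2 difference from Col-0 against the fitted CPM in Col-0 (log axis) for the filtered genes (grey) and the 8 members (coloured) in *exg1-1* (left) and *rlp44-3* (right), with genes beyond the axis limits not drawn. The members lie inside the cloud of genes of like level in both panels, with *BRL1* (−0.41) the lowest in *exg1-1* and *BKI1* (0.26) the highest in *rlp44-3*.

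Among 10 partners and relatives of BES1 and BZR1, all of which passed the filter, *MYBL2* was the 1 gene past 1.2-fold in each mutant, against 29.3% of all filtered genes past it in *exg1-1* and 19.2% in *rlp44-3*. MYBL2 is a transcriptional repressor that acts with BES1 on brassinosteroid-repressed genes and that also limits anthocyanin synthesis. It was at 97.8 fitted CPM in Col-0, with 175 in *exg1-1* and 145 in *rlp44-3*. This is a log2 difference of 0.84 in *exg1-1* (counting interval 0.77 to 0.90) and 0.56 in *rlp44-3* (0.49 to 0.63), past 1.5-fold in *exg1-1*. The partners *BIM1*, *BIM2* and *BIM3* lay between −0.09 and 0.13 in *exg1-1* and between −0.16 and −0.08 in *rlp44-3*. *PIF4*, a growth-promoting factor that binds BZR1, was at 0.08 and 0.12.

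Genes of brassinosteroid synthesis that the pathway represses lay on both sides of Col-0 in each mutant. All 6 passed the filter. *CPD* was at 107 fitted CPM in Col-0 against 123 in *exg1-1* and 99.4 in *rlp44-3* (log2 differences 0.21 and −0.10), and *DWF4*, a hydroxylase that limits the rate of synthesis, at 18.8, 18.5 and 18.4. *BR6OX1* was the lowest in *exg1-1* at −0.40 (counting interval −0.81 to 0.01), and *BR6OX2*, which makes the active hormone brassinolide, the lowest in *rlp44-3* at −0.52 (−0.72 to −0.33). In *rlp44-3* *BR6OX2* was the only one past 1.2-fold, and in *exg1-1* *BR6OX1* was, against 19.2% and 29.3% of all filtered genes. *BR6OX1* was at 0.10 in *rlp44-3*, the highest of the 6.

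Genes known to be induced by brassinosteroids differed in both directions. The study listed *XTH22* among published brassinosteroid-induced genes and also named it from these libraries. The place of *XTH22* in the list is thus not independent of these libraries. Of 12, 10 passed the filter, and *IAA5* and *PRE5* lay under it in every genotype. *IAA5* had a mean of 4.39 fitted reads per library in Col-0, against 1.33 in *exg1-1* and 0.665 in *rlp44-3*. In *exg1-1*, 3 were higher (2 with library totals or the upper quartile) and 2 lower by at least 1.2-fold, against 12.6% and 16.6% of all filtered genes. In *rlp44-3* 2 were higher and 1 lower, against 8.40% and 10.8%. *XTH22*, a xyloglucan-modifying enzyme that is also induced by touch, was at 17.3 fitted CPM in Col-0, with 49.6 in *exg1-1* and 55.4 in *rlp44-3* (log2 differences 1.52 and 1.68). *EXO*, a cell wall protein that promotes leaf growth, was at 23.9, 36.8 and 41.0 (0.62 and 0.78). *BEE3*, the third higher gene in *exg1-1*, was at 0.30 there (counting interval 0.13 to 0.47) and at 0.13 in *rlp44-3*. *KIDARI* and *PRE1*, small helix-loop-helix proteins that promote elongation, were lower in *exg1-1* (−0.48 and −0.41) and at −0.21 and 0.04 in *rlp44-3*. *SAUR15* was the lowest in *rlp44-3* at −0.45 (counting interval −0.98 to 0.08). The median of the 10 was 0.17 in *exg1-1* and 0.09 in *rlp44-3*, and none of the 8 filtered signalling genes differed from Col-0 as much as *XTH22* or *MYBL2* in either mutant.

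**Figure D5:**
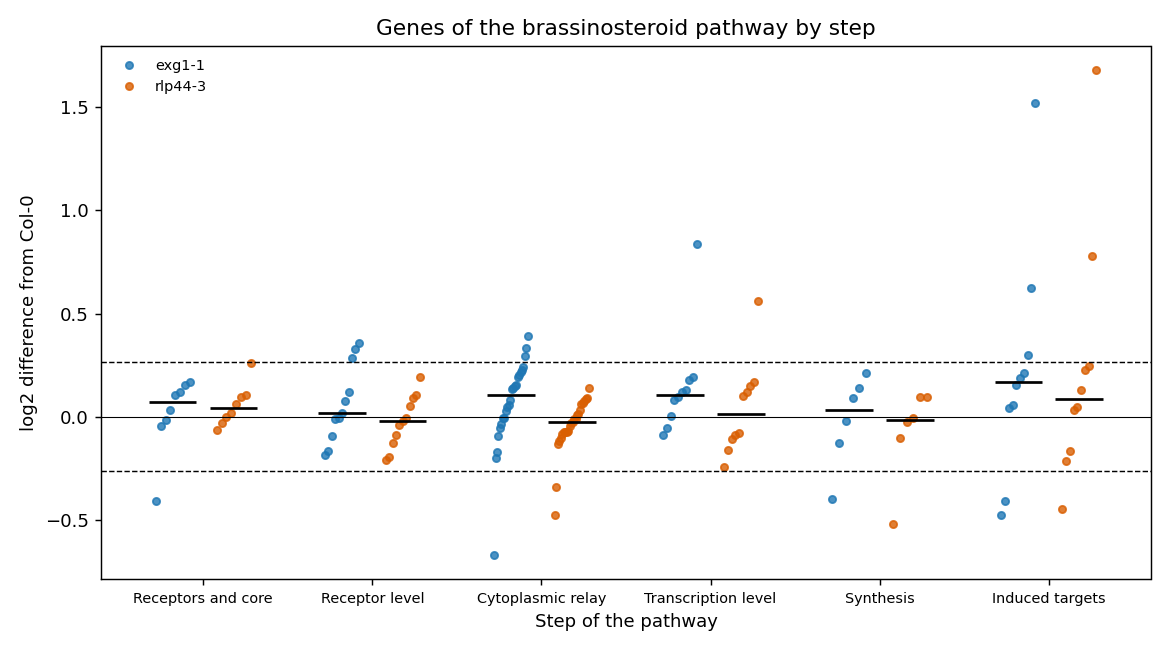
Log2 difference from Col-0 in *exg1-1* (blue) and *rlp44-3* (orange) of the filtered genes at each step of the pathway (points), with medians (black bars) and dashed lines at 1.2-fold. *RLP44*, mutated in *rlp44-3* and at −0.31 in *exg1-1*, is left out of both mutants. The receptor-level medians drawn therefore differ from those of the full list. The genes of the receptors and core lie within the lines except *BRL1* in *exg1-1*, and the widest values are *XTH22* at 1.52 and 1.68 among the induced targets.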

How the data were processed

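Poly(A) mRNA was sequenced as directional paired-end libraries in 9 samples, 3 per genotype. Per the labels and the study's methods, the authors used fastp for trimming, HISAT2 against TAIR10 for mapping, HTSeq-count for counting and DESeq2 for their comparisons. Versions of these tools, strandedness settings and the handling of multiply mapped reads are not given in the sources used here. In the deposit, the authors gave a table under the name of raw counts. It held no value that was whole within 1e-06, and columns of 1 genotype were proportional, so the values were treated as fitted means and not as counts. Of its 33341 rows, 25717 had values. Another 3 columns, of a line that is not among the samples, were not used. The columns for *exg1-1* and *rlp44-3* carry the name of the line without a sample number that could be matched with certainty, and were taken as columns of their group.

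The count test that was planned for whole counts was not possible without a spread between replicates. The 3 columns of a genotype were summed. A gene passed the filter on low values if every library of some genotype had at least 0.908 CPM, equal to 10 reads at the median library size, and if its reads over all libraries came to 15 or more (19454 genes). Genotypes were scaled by TMM (trimmed mean of M values, trims of 30% and 5%, written for this work and tested on simulated data), giving a log2 scale against Col-0 of 0.34 for *exg1-1* and 0.31 for *rlp44-3*, with levels given as CPM relative to the total of Col-0. Exact 95% intervals (Clopper-Pearson for ratios, Poisson for levels) cover counting error only. Exon lengths, overlaps, coordinates and sequences came from RefSeq's TAIR10.1, in which 25487 genes were found, and describe that build, not the TAIR10 mapping. Windows are 250 bases before the annotated start.

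The 9 genes, the pathway and marker lists, the folds of 1.2, 1.5 and 2 and the rule for named genes were chosen with earlier results of these data known. The rule named all 9 genes, paralogs that passed the filter, the highest and lowest gene of each list per mutant and any past 1.5-fold. The comparison with genes within 2-fold of a level, the counting-interval share, the ratios, the windows and other genes named were added after the values were seen. Alternatives were RLE, upper quartile and library-total scaling, scaling without organelle genes, a filter of 10 reads in each library, none at all, and omission of each library. Calculations used Python 3.11.15, numpy 2.4.6, pandas 2.3.3, scipy 1.17.1 and matplotlib 3.10.9.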

Additional observations from a re-analysis of the deposited data

How the results depend on the processing

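No paired analysis was possible because the columns carry no replicate spread and no sample number for the mutants. Without the filter, *BSU1* entered and 2 members were past 1.2-fold in *exg1-1* against Col-0 and 2 in *rlp44-3* against Col-0 (*BKI1* and *BSU1*). With library totals as the scale, 1 member was past it in *rlp44-3* (*BKI1*). Of 360 member differences under the 15 alternatives, 358 stayed inside the counting interval. This count is no measure of stability. In 9 of the alternatives 1 library is left out, which can hardly move a value, and the other 6 shift all members of a comparison alike. The 2 outside were *BRI1* (0.16) and *BIN2* (−0.0055) between the mutants under library totals. No member past 1.2-fold changed sign in these alternatives, and none could, since every shift was smaller than that limit. The largest shift of a log2 difference was 0.061. It came from library totals, between the mutants. Members whose counting interval left out 0 numbered 4, 2 and 3 in the 3 comparisons (*exg1-1* and *rlp44-3* against Col-0, and between the mutants), with 3, 2 and 3 under library totals and 3, 1 and 3 under the upper quartile. They numbered 4, 2 and 4 without the filter, and 4, 1 and 3 with 10 reads in each library or without organelle genes. Leaving out 1 library moved them by at most 0.00064, which follows from the proportional columns and says nothing about stability. Levels under about 10 reads per library, such as those of *BSU1*, carry no readable direction, and intervals leave out biological variation.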
